A study of Mus musculus with 21 samples.

Results

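Nascent RNA was compared between 4 h and 1 h of raised network activity in mouse cortical cultures that had received only the solvent DMSO. The comparison rests on 6 of the 21 libraries of the study, 3 taken at each time, chosen by pretreatment, drug and time as the labels give them. Cultures came from CD1 mice and were at day 17 in vitro, and the labels give 3 biological replicates of mixed sex per group. Every culture of the 2 groups was preincubated with DMSO for 30 min, then received 40 µM bicuculline methiodide, and carried 2 mM bromouridine over its last 30 min. The other libraries used here were DMSO with water (the vehicle of bicuculline) at 4 h, and cultures preincubated with 25 µM MM401, an inhibitor of the histone methyltransferase MLL1, with bicuculline or water at either time. A DMSO group with water at 1 h was not analysed here, so that both bicuculline times are set beside water at 4 h. The question addressed was which genes are switched off, which persist and which come on late while activity stays raised.

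Bicuculline blocks GABA-A receptors, the main inhibitory receptors of the cortex, so that excitatory input goes unopposed and neurons fire in synchrony. Firing opens calcium channels and NMDA receptors, and kinases then act on factors already bound at promoters, such as CREB and SRF. The first genes switched on need no new protein. Many encode transcription factors of the AP-1, Egr and Nr4a families, which go on to act at a second wave of genes for secreted factors, channels and synaptic proteins. BrU-seq isolates RNA that took up bromouridine during a short pulse, so a value reflects RNA made in that window rather than the stock of RNA in the cell.

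The 6 libraries held 54145035 to 87939384 counts in genes. Values below are CPM, which are counts scaled to a common TMM-adjusted library total, and differences are log2 fold changes of 4 h over 1 h with their standard error (SE) from edgeR's quasi-likelihood fit, so that a negative value is a fall. CPM scale with the span of a gene, so that levels are compared between groups and not between genes. Of 24984 genes in the table, 16959 were tested, and a gene was called at a Benjamini-Hochberg adjusted p under 0.05. The first principal component of the 6 libraries held 51.6% of their variance and separated the 1 h from the 4 h libraries. The cultures expressed defining markers of excitatory neurons (Slc17a7), inhibitory neurons (Gad1, Gad2) and astrocytes (Slc1a3, Aqp4). Of 5 tested fibroblast markers, Col1a1, Col1a2, Col3a1 and Dcn stayed under 2 CPM in each group, while Pdgfra, also a marker of oligodendrocyte precursors, had means of 83.6 CPM at 1 h and 89 at 4 h, and none of the 5 was called. One MM401 water library at 4 h, with 316741 counts, was left out. DMSO water replicate 1 stood apart from the other 2 water libraries, with 62.2% of its counts falling in genes that span 100 kb or more, against 58.0% and 56.9%. In bulk cultures, fewer cells of a type and less RNA made per cell cannot be told apart.

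From 1 h to 4 h, 5805 genes (34.2% of those tested) were called, 3233 higher (19.1%) and 2572 lower (15.2%). Large changes ran mostly downward: of 603 genes called with at least a 2-fold change (3.56%), 399 were lower (2.35%) and 204 higher (1.2%). Many of these were genes of low level. Among the 12594 genes with at least 2 CPM in either group, 148 were called at least 2-fold lower and 97 at least 2-fold higher. A gene was counted as held when the 95% interval of its change lay within 1.5-fold in both directions, which 10036 genes (59.2%) met. A small change could be both called and held. The median gene changed by 0.02. At an unadjusted p under 0.05, 7201 genes passed. The 3 libraries of one time lay entirely above those of the other in 23.4% of genes at 4 h and in 19.9% at 1 h. The balance of small changes depended on the settings. Without TMM (plain library size) 2015 genes were called higher and 3131 lower, at a minimum count of 50 2616 and 2991, and with all 21 libraries 1725 and 2020. The excess of large falls was present under each of the 4 edgeR scalings tried (158 to 204 higher, 399 to 493 lower).

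**Figure D1:**
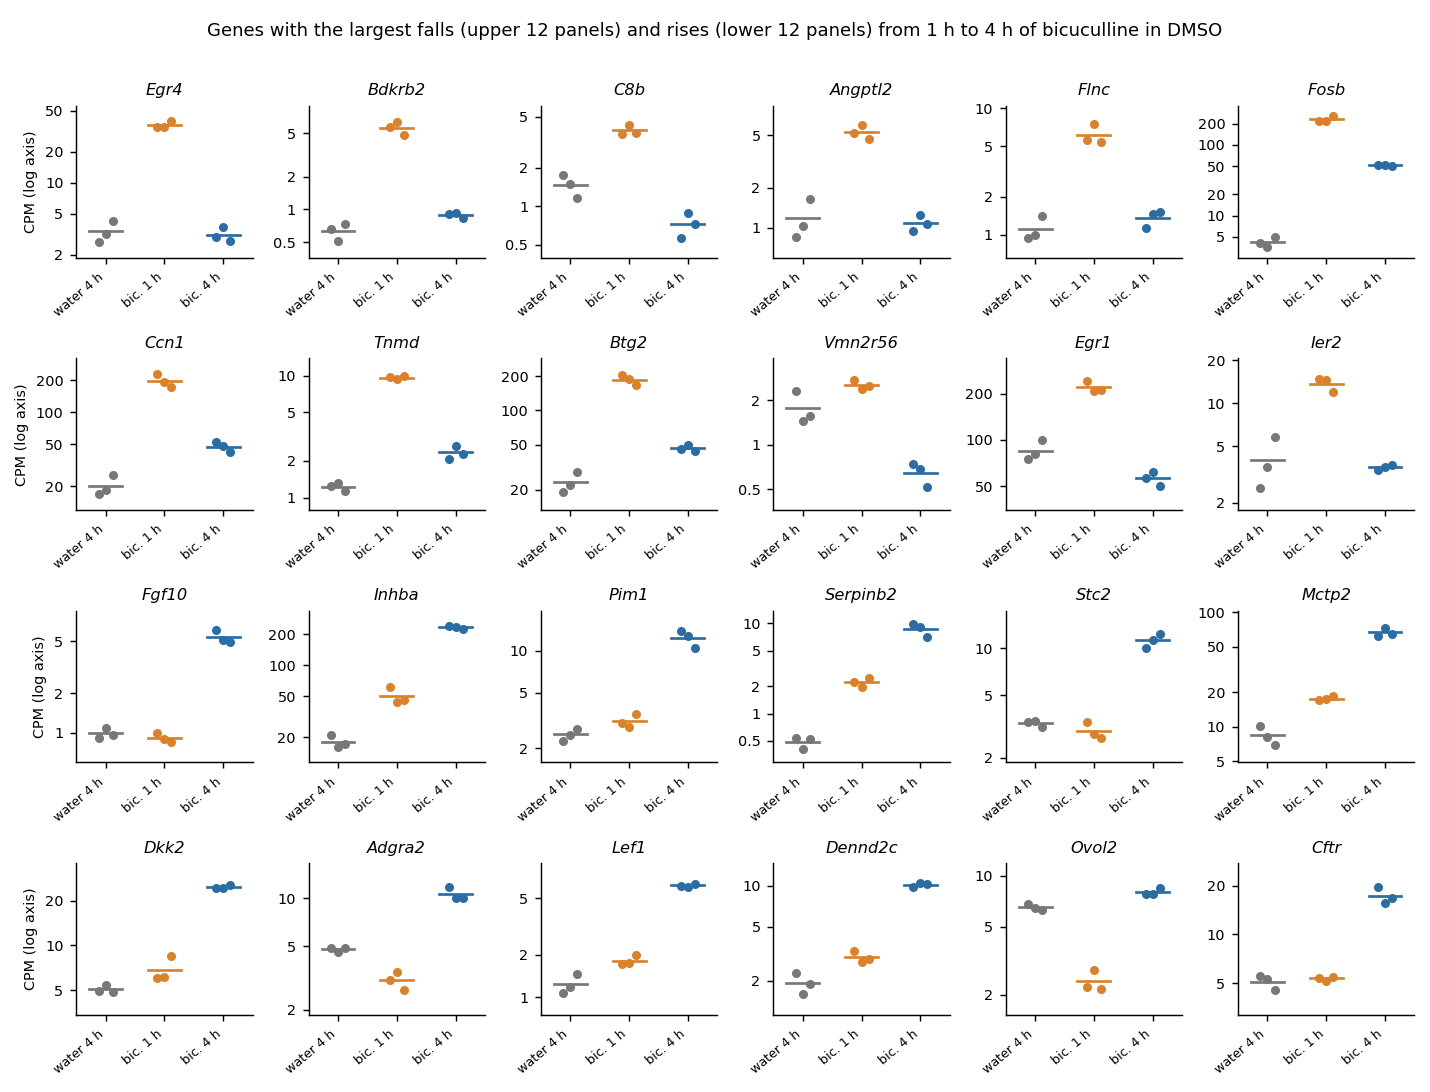
CPM of each library (points, log axis) and the mean of the 3 libraries (bars) in DMSO with water at 4 h (grey), bicuculline at 1 h (orange) and bicuculline at 4 h (blue), for the 12 genes with the largest falls (upper panels) and the 12 with the largest rises (lower panels). In each panel the orange and blue points do not overlap. Egr4 returned from 36.3 CPM at 1 h to 3.12 at 4 h, beside 3.37 in water, while Fgf10 sat at 0.916 at 1 h and 5.39 at 4 h.

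Transcription factors of the first wave were lower at 4 h than at 1 h, and the Egr genes were back at the water level or below it. Of 10 Egr, Nr4a and Npas4 factors with their corepressors, 9 were called lower and none higher, with a median of -1.29, beside 15.2% lower and 19.1% higher among all genes tested. Egr4, a zinc finger factor (chr6:85511120-85513589), fell furthest. Its libraries read 34.6, 34.5 and 39.7 CPM at 1 h and 2.95, 3.69 and 2.72 at 4 h (-3.54 ± 0.18, adjusted p = 8e-11), against 2.67, 3.2 and 4.22 in water. The 4 h libraries overlapped those of water.

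Egr1, the best known member, went below the unstimulated level. It read 242, 208 and 212 CPM at 1 h and 56.5, 62.1 and 50.2 at 4 h (-1.97 ± 0.10, adjusted p = 4.31e-11), while water read 74.8, 80.8 and 99.7, so that each 4 h library lay under each water library. Egr3 (chr14:70077444-70082613) did the same, with 38.1, 32.4 and 42.5 CPM at 1 h, 10.7, 10.2 and 8.52 at 4 h and 20.5, 19.9 and 21.4 in water (-1.94 ± 0.10, adjusted p = 1.87e-11). Egr2 (chr10:67537868-67542188) fell from 16.4, 15.5 and 14.7 to 5.5, 5.15 and 3.59 CPM and overlapped water at 4.7, 3.16 and 3.82 (-1.72 ± 0.14). All 4 Egr genes were thus at or below water after 4 h.

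The Nr4a orphan nuclear receptors and Npas4, a neuron-specific activity factor, fell but stayed above water. Nr4a1 (chr15:101266845-101274794) read 241, 252 and 256 CPM at 1 h and 111, 106 and 103 at 4 h (-1.22 ± 0.09, adjusted p = 2.19e-09), against 29.9, 27.6 and 30.5 in water. Nr4a3 fell from a mean of 1131 to 439.9 CPM (-1.36 ± 0.09) and Nr4a2 from 71.6 to 41 (-0.81 ± 0.13). Npas4 (chr19:4984353-4989971) read 663, 541 and 506 CPM at 1 h and 348, 265 and 242 at 4 h (-1.0 ± 0.16, adjusted p = 0.000143), still far over its 23.3 to 31.3 in water. Nab2, a corepressor that binds Egr proteins, fell from 2.97 to 1.81 CPM (-0.70 ± 0.11), and its relative Nab1 was held (-0.10).

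AP-1 is a dimer of Fos and Jun proteins, and 10 of the 14 AP-1 genes were called lower and none higher (median -0.87), beside 15.2% and 19.1% of all genes tested. Fosb (chr7:19302695-19310045) fell from 221, 218 and 255 CPM to 52.6, 51.9 and 50.9 (-2.16 ± 0.13, adjusted p = 1.86e-09), with 4.09, 3.64 and 5.01 in water. Fos itself (chr12:85473889-85477274) fell from 291, 245 and 233 CPM to 88.7, 97.5 and 88.4 (-1.48 ± 0.17, adjusted p = 4.06e-06), with 29.5, 40.6 and 50.7 in water. Both were well below the 1 h libraries at 4 h and both remained above water without overlap. Jun (-1.20 ± 0.16), Junb (-1.14 ± 0.11), Jund (-0.99 ± 0.16) and Maff (-1.22 ± 0.19) fell too. Fosl2 went from 258 to 152 CPM (-0.76 ± 0.09) with 41.8 in water. Atf3, a stress-responsive member, was called lower but stayed within 1.5-fold, from 97.9 to 79.9 CPM (-0.29 ± 0.09), against 10.5 in water, a call lost without DMSO 4 h replicate 1 or 2. Batf, Batf3, Maf and Mafk were not called.

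Among 26 other immediate-early genes, 15 were called lower and 6 higher (median -0.46), beside 15.2% and 19.1% of all genes tested. Ccn1, a secreted matrix-bound signalling protein (chr3:145646970-145649985), read 228, 193 and 171 CPM at 1 h and 52, 48.4 and 41.9 at 4 h (-2.06 ± 0.13, adjusted p = 4.79e-09), with 17.1, 18.5 and 25.3 in water. Btg2, which recruits an mRNA deadenylase (chr1:134074864-134079155), read 205, 190.3 and 166 CPM and then 45.7, 50 and 44 (-2.01 ± 0.15, adjusted p = 2.24e-08), with 18.9, 22.1 and 28.6 in water. Each lost most of its rise and kept a remainder over water in all 3 libraries. Ier2 (chr8:84661330-84662852) fell from 14.7, 14.5 and 12 CPM to 3.38, 3.56 and 3.68 (-1.95 ± 0.19, adjusted p = 1.61e-07), inside its water range of 2.54 to 5.78. Srf, the factor that binds the CArG box, fell from 14.2 to 6.06 CPM (-1.22 ± 0.12), under its 6.95 to 9.72 in water. The members that rose were Arid5b (0.64 ± 0.08), Csrnp1 (0.67 ± 0.11), Klf5 (0.30 ± 0.07), Sertad1 (0.43 ± 0.12), Gadd45a (0.48 ± 0.16) and Klf2 (0.82 ± 0.30). The calls of Klf2, at 0.599 CPM, and of Gadd45a were each lost under several settings, and those of Klf5 and Sertad1 with plain library size, which left 2 members higher. Gadd45a overlaps a gene on the opposite strand. Arid5b, a chromatin-binding factor, went from 538, 560.2 and 592 CPM at 1 h to 885, 872 and 885 at 4 h, with 265 to 311 in water.

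Of 24 synaptic and kinase effectors, 12 were called lower and 3 higher (median -0.37), beside 15.2% and 19.1% of all genes tested. Arc, which drives AMPA receptor endocytosis (chr15:74669080-74672570), fell from 75, 69.4 and 72.6 CPM to 25.9, 22.8 and 18.4 (-1.70 ± 0.15, adjusted p = 2.63e-07), with 10.1, 9.23 and 12.2 in water. Homer1, whose short activity-induced form uncouples synaptic scaffolds (chr13:93303756-93405129), fell from 2188, 2036 and 2728 CPM to 818, 719.96 and 688 (-1.64 ± 0.13, adjusted p = 4.91e-09), with 553, 447 and 421 in water. Counts over the whole gene do not separate the short form from the full-length one. Rgs4, a regulator of G protein signalling, fell too (-1.06 ± 0.22), and so did Arl4d, a small GTPase (-1.40 ± 0.15), and the kinase Pim3 (-1.10 ± 0.14).

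Others of this list were held. Nptx2, a secreted pentraxin that gathers AMPA receptors (chr5:144545886-144557478), read 47.5, 49.5 and 48 CPM at 1 h and 43, 52.1 and 44.2 at 4 h, with 11.6, 12.4 and 12.8 in water. The 2 times overlapped and the change was held (-0.06 ± 0.09, adjusted p = 0.687). Syt4, a vesicle protein (0.11), Rasgrp1, a Ras activator (-0.04), Lrrtm2, a synaptic adhesion protein (0.02), and Kcnj4, an inward rectifier (0.03), were also held and lay above water without overlap at both times. Rcan1, a calcineurin inhibitor (-0.10), was held and overlapped water at 4 h. Plk2, a kinase of synaptic downscaling (chr13:110395043-110400843), stood between: 300, 295 and 243 CPM at 1 h, 239.6, 257 and 212 at 4 h and 89.1, 100.2 and 99.7 in water (-0.24 ± 0.08, adjusted p = 0.0174). That call was lost with all 21 libraries in the fit and without any of 3 single libraries (DMSO 1 h replicates 1 and 2, DMSO 4 h replicate 3). Kmt2a, which encodes MLL1 (chr9:44803354-44881274), was near water at 1 h (0.19 on the log2 scale) and overlapped it at 4 h. It was held (-0.09 ± 0.07, adjusted p = 0.35), although it was called lower with plain library size (-0.17).

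Of 17 genes that restrain MAP kinases, 9 were called lower, 1 higher and 7 not called (median -0.38), beside 15.2% and 19.1% of all genes tested. Dusp1, a nuclear phosphatase of MAP kinases (chr17:26505590-26508472), read 135, 113 and 94.8 CPM at 1 h, 52, 51.7 and 43.4 at 4 h and 13.9, 14.9 and 17.8 in water (-1.22 ± 0.11, adjusted p = 7.5e-08). Dusp14 (-1.03 ± 0.07), Dusp5 (-0.98 ± 0.12), Dusp6 (-0.70 ± 0.12) and Dusp8 (-0.63 ± 0.10) also fell. Dusp4, Dusp7, Spry2, Spry4 and Spred1 were held, and Spred2 rose slightly (0.27 ± 0.07), a call lost with all 21 libraries, which left none higher.

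The 12 largest falls also held genes that are little known in neurons and were low throughout. Bdkrb2, the bradykinin B2 receptor (chr12:105563171-105593071), read 5.73, 6.35 and 4.77 CPM at 1 h and 0.902, 0.922 and 0.828 at 4 h (-2.67 ± 0.24, adjusted p = 2.43e-08), with 0.663, 0.516 and 0.73 in water. Flnc, the actin crosslinker filamin C (chr6:29433152-29461889), fell, with 5.38 to 7.47 CPM at 1 h and 1.13 to 1.51 at 4 h (-2.17 ± 0.23). Tnmd, tenomodulin (chrX:133851007-133865578), fell, with 9.34 to 9.89 CPM at 1 h and 2.07 to 2.66 at 4 h (-2.04 ± 0.12). Flnc overlapped water at 4 h, Bdkrb2 stayed just above it, and Tnmd stayed above its 1.13 to 1.33 CPM in water. Angptl2, a secreted angiopoietin-like protein, fell, with 4.63 to 5.92 CPM at 1 h and 0.937 to 1.24 at 4 h (-2.27 ± 0.23), and overlaps Ralgps1 on the opposite strand, so that its counts are uncertain where strand was not used. C8b, a complement subunit (chr4:104766316-104804548), fell, with 3.68 to 4.34 CPM at 1 h and 0.566 to 0.878 at 4 h (-2.43 ± 0.18), below its 1.16 to 1.75 in water. Vmn2r56, a vomeronasal receptor with close relatives in the genome (chr7:12693997-12733105), fell, with 2.39 to 2.74 CPM at 1 h and 0.519 to 0.743 at 4 h (-1.98 ± 0.19), also below water (1.45 to 2.3).

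Promoters of first-wave genes that fell are printed below beside promoters of late risers, as picked examples. The CRE, bound by CREB, and the CArG box, bound by SRF, are elements through which calcium signals reach the first wave. Shares over whole sets of genes follow the sequences. Each sequence is the 120 bases just before the RefSeq start of the gene (build GRCm38.p6), written 5′ to 3′ on the gene's strand. Capitals mark the CRE half-site (TGACG or its reverse complement CGTCA), the CArG box, or the AP-1 motif TGANTCA.
Egr4 (chr6:85513590-85513709, minus strand): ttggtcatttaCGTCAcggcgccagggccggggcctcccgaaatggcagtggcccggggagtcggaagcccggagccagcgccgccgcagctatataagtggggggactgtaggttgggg
Fosb (chr7:19310046-19310165, minus strand): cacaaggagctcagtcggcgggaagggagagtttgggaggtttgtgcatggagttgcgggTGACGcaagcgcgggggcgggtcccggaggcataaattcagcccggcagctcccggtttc
Fos (chr12:85473770-85473889, plus strand): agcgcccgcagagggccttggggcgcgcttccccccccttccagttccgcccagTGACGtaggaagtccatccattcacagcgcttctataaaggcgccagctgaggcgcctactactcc
Nr4a1 (chr15:101266726-101266845, plus strand): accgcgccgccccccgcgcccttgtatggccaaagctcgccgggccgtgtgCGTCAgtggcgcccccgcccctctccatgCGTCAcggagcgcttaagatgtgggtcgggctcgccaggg
Egr2 (chr10:67537749-67537868, plus strand): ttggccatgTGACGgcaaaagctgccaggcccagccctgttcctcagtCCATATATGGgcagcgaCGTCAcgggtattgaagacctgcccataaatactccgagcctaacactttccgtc
Srf (chr17:46556163-46556282, minus strand): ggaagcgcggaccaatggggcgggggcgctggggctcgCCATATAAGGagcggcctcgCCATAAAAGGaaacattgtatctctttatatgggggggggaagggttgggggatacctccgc
Btg2 (chr1:134079156-134079275, minus strand): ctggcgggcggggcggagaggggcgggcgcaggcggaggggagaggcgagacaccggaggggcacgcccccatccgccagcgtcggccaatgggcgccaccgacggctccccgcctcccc
Fgf10 (chr13:118714579-118714698, plus strand): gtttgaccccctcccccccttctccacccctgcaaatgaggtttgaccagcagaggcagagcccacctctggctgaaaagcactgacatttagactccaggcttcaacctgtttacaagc
Stc2 (chr11:31370062-31370181, minus strand): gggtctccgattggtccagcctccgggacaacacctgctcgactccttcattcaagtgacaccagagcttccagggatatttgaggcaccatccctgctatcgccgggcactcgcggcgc
Serpinb2 (chr1:107511303-107511422, plus strand): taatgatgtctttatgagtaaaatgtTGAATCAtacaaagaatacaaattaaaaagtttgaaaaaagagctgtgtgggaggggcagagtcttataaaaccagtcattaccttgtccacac
The stretches of Egr4, Fosb and Fos held 1 half-site each, those of Nr4a1 and Egr2 held 2, that of Egr2 also held a CArG box, and that of Srf held 2 CArG boxes. That of Btg2, also among the 12 largest falls, held none of them. Those of Fgf10 and Stc2 held none of the 3 motifs, and that of Serpinb2 held an AP-1 motif.

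The same letters were counted over windows from 250 bases before to 50 after the start, on both strands, for the 12823 tested genes with a RefSeq window within 1000 bases of the start in the count table. Induced sets chosen in the MM401 libraries, defined further on, served for this count. The half-site was in 51 of 95 windows of early-only genes (53.7%), in 43.1% of those induced at both times, in 23.6% of those induced late only, and in 32.8% of all genes with at least 2 CPM. The CArG box was in 9 of 95 early-only windows (9.47%), in 0.813% at both times, in 2.08% late only, and in 1.29% of all genes with at least 2 CPM. The AP-1 motif was in 5.26%, 9.76% and 7.64% of these sets and in 4.42% of all genes with at least 2 CPM, and the Npas4 core TCGTG in 17.9%, 22.8% and 25.0% against 22.0%. The half-site counts include full CREs. The full CRE by itself was in 4 of 95 early-only windows (4.21%), in 7.32% at both times and in 2.78% late only. It was in 3.50% of all genes with at least 2 CPM. The early-only excess of the half-site was thus not matched by the full CRE, which was commonest in the set induced at both times. A motif of Egr factors, also searched, was in 1.05%, 1.63% and 1.39% of these sets, against 1.27%. Median GC content was 62 to 63% in the 3 sets and 61.7% in all these genes. Among genes that fell at least 2-fold in DMSO with at least 2 CPM, 27.8% of windows held the half-site, 13.9% the AP-1 motif, 1.85% the CArG box and 15.7% the Npas4 core, with a median GC content of 58.3%. Among those that rose at least 2-fold the shares were 21.1%, 7.04%, 1.41% and 31.0%, with a median GC content of 64%. In fallers and risers alike, the half-site share lay under the 32.8% of all genes with at least 2 CPM. Their CArG box shares lay near the 1.29%, their AP-1 shares over the 4.42%, and their Npas4 core shares on either side of the 22.0%. Full CREs were in 3.70% of faller windows and 1.41% of riser windows, beside 3.50%, and the Egr motif was in 0% of both. The GC content of fallers and risers lay on either side of the 61.7%, and its part in the motif shares was not tested. A match is a description of the letters and not of binding, and the half-site was added to the motifs searched after values had been seen.

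How much of the 1 h rise was left at 4 h was computed for the 80 members of the gene lists that were called at least 2-fold above water at 1 h, had at least 2 CPM and did not overlap water, which 1.77% of all tested genes met. Members with a smaller rise did not enter, among them Egr3 (0.87 above water at 1 h, on the log2 scale). The share is the 4 h level over the mean of water, divided by the mean rise at 1 h. It was -21.3% for Egr1, -4.42% for Ier2 and -0.746% for Egr4, all at or under the water mean. Homer1 kept 14.6% ± 3.67 (SD, n = 3 libraries), Arc 19.2% ± 6.12, Fosb 20.9% ± 0.382 and Fos 23.8% ± 2.39. Nr4a1 kept 35.2% ± 1.75, and Npas4 47.6% ± 10.3. Each SD covers the 4 h libraries alone, with the water and 1 h means taken as fixed, so the scatter of those 2 groups is left out. By these means the first-wave genes retained unequal parts of their rise.

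At the other end, several genes for secreted peptides kept or added to theirs. Nts, neurotensin, kept 97.1% ± 12.3, Adcyap1, which encodes PACAP, 132% ± 15.3, and Pdyn, prodynorphin, 148% ± 27.1. Scg2, secretogranin, had a mean of 91.8% with a wide spread between libraries (SD 49), and Penk, the enkephalin precursor, kept 62.1% ± 4.02. Nfil3, a repressor of clock genes, kept 109% ± 11.9, Crem, which encodes repressors of cAMP-driven transcription, 88.9% ± 6.06, and Sik2, a kinase that acts on CREB coactivators, 123% ± 3.3.

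**Figure D2:**
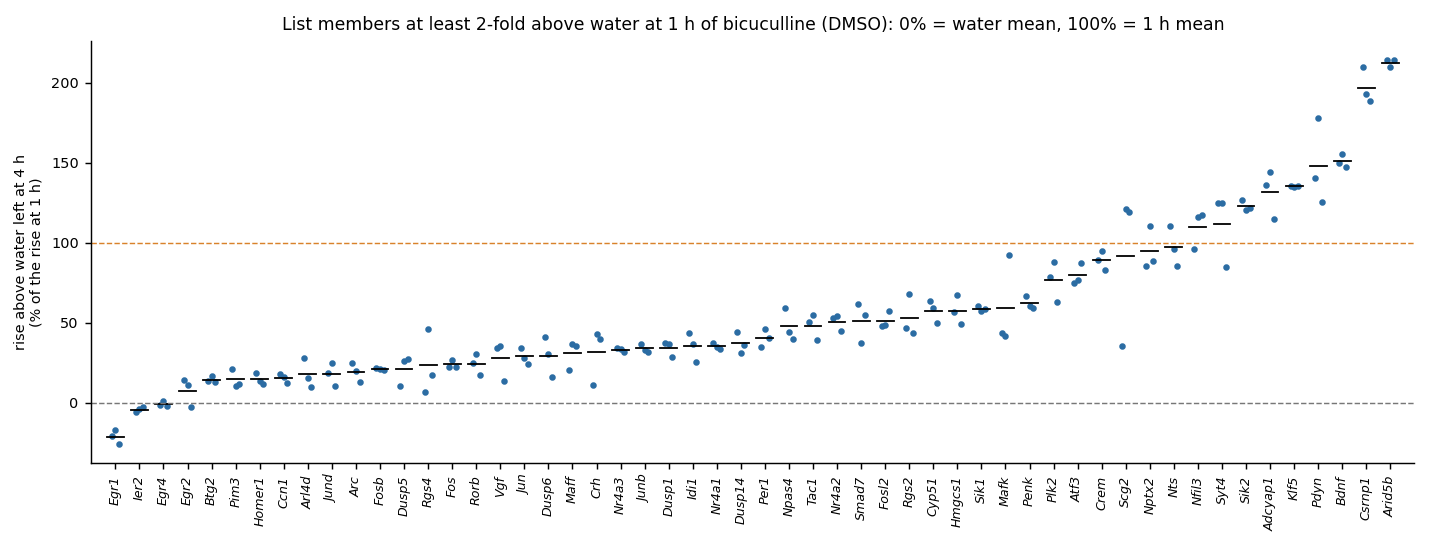
Share of the 1 h rise above water that was left at 4 h, in percent, for the 54 of the 80 list members that are named in the text and lie under 250% (Serpinb2 and Inhba lie higher, and Egr3 did not rise 2-fold and is not shown). Points are the 3 libraries with bicuculline at 4 h and bars their means, the grey line is the water mean (0%) and the orange line the 1 h mean (100%). Egr1 lies lowest at -21.3% and Arid5b highest of those shown at 213%.

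Some genes stayed within 1.5-fold of their 1 h level. Held genes among those induced at both times under MM401 included Ifrd1, Peli1, Sik2 and Rnf217, likewise named for their CPM at 1 h, which favours long genes. Ifrd1, a transcriptional coregulator (chr12:40203128-40223189), read 689.5, 611 and 735 CPM at 1 h and 768, 625 and 619 at 4 h, against 91.5, 91.3 and 102 in water (-0.02 ± 0.09). Peli1, a ubiquitin ligase (chr11:21091323-21150327), read 650.4, 638 and 744 and 684, 653 and 619.9, against 293, 258 and 248 in water (-0.05 ± 0.09). In both, the 2 times overlapped and lay far above water. Ntrk2, the receptor of BDNF (chr13:58806568-59133970), was likewise held, at 2340.3 and 2254 CPM against 1328 in water (-0.05 ± 0.09).

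Secreted proteins stood among the largest late rises. The list of 37 secreted factors and neuropeptides split evenly, with 11 called higher and 11 lower (median -0.02), beside 19.1% and 15.2% of all genes tested. Fgf10, a fibroblast growth factor (chr13:118714698-118792573), read 0.921, 1.09 and 0.956 CPM in water, 1.0, 0.902 and 0.847 at 1 h and 6.12, 5.14 and 4.92 at 4 h (2.55 ± 0.15, adjusted p = 7.6e-11). It was not above water at 1 h. Stc2, a secreted glycoprotein hormone (chr11:31359440-31370061), had the same course, with 3.39, 3.44 and 3.13 CPM in water, 3.36, 2.83 and 2.66 at 1 h and 10.03, 11.3 and 12.4 at 4 h (1.92 ± 0.10, adjusted p = 1.87e-11). Serpinb2, an inhibitor of plasminogen activators (chr1:107511422-107525600), rose in both steps, from 0.534, 0.411 and 0.518 to 2.25, 1.98 and 2.46 and then 9.82, 9.15 and 7.08 CPM (1.96 ± 0.22, adjusted p = 8.58e-07).

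Bdnf, the neurotrophin most studied in activity-dependent plasticity (chr2:109674699-109727043), was already high at 1 h and rose further. It read 247, 214 and 200.4 CPM in water, 1029.7, 974 and 997 at 1 h and 1390.0, 1431 and 1367 at 4 h (0.48 ± 0.10, adjusted p = 0.000575). Every 4 h library exceeded every 1 h library. Fgf9 (0.78 ± 0.08), Areg, an EGF receptor ligand (0.91 ± 0.22), and Stc1 (0.37 ± 0.11) rose too. Among the peptides that fell were Crh, corticotropin-releasing hormone (-1.35 ± 0.34), Tac1, the substance P precursor (-0.73 ± 0.12), Vip (-0.88 ± 0.14), Vgf (-0.73 ± 0.12) and Penk (-0.52 ± 0.12), and among the growth factors Lif (-0.98 ± 0.18), Hbegf (-0.95 ± 0.20) and Fgf2 (-0.55 ± 0.11). Crh stood at only 3.2 CPM at 1 h, and its call was lost when the 6 libraries alone were fitted. The call of Stc1 was lost with all 21 libraries, which left 7 members of the list higher, and without DMSO 1 h replicate 3.

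Genes at several steps of the activin pathway were called. Activins are dimers of inhibin beta subunits that signal through paired receptors to Smad2 and Smad3, and follistatin (Fst) binds and blocks them. Inhba, the beta A subunit (chr13:16011850-16031609), read 20.9, 16.3 and 17.4 CPM in water, 61.3, 43.9 and 45.9 at 1 h and 240.3, 235 and 224 at 4 h (2.21 ± 0.25, adjusted p = 7.86e-06). It overlaps a non-coding gene on the opposite strand, B230303A05Rik, whose reads cannot be told apart where strand was not used. Fst (chr13:114452261-114458951) rose as well, from 2.0, 2.1 and 2.21 to 5.15, 5.93 and 4.4 CPM (1.29 ± 0.16, adjusted p = 1.07e-06), with 0.976 to 1.34 in water. The ligand and its inhibitor thus rose together, from different levels.

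Of the receptors, Acvr1c rose (0.68 ± 0.14) and Tgfbr1 (-0.41 ± 0.06) and Acvr1 (-0.21 ± 0.07) fell, while Acvr1b, Acvr2a, Acvr2b and Tgfbr2 were held. Smad2 (0.41 ± 0.05) and Smad4 (0.27 ± 0.05), which carry the signal to the nucleus, rose. The inhibitors of the pathway Skil (-0.48 ± 0.08), Ski (-0.37 ± 0.06), Smad7 (-0.45 ± 0.09) and Bambi (-0.33 ± 0.13) fell. The calls of Acvr1 and Bambi were lost under several settings, and that of Smad4 with all 21 libraries. Over the 26 genes of activin and TGF-beta signalling, 6 were called higher and 8 lower (median -0.10), beside 19.1% higher and 15.2% lower among all genes tested. Without DMSO 1 h replicate 3 or 4 h replicate 2, and with all 21 libraries, 5 were lower.

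Other late risers were intracellular or on the cell surface. Pim1, a serine/threonine kinase (chr17:29490784-29496110), read 2.27, 2.51 and 2.77 CPM in water, 3.04, 2.84 and 3.51 at 1 h and 13.8, 12.8 and 10.5 at 4 h (1.98 ± 0.11, adjusted p = 4.31e-11), whereas its relative Pim3 had fallen. Mctp2, a membrane protein with C2 domains (chr7:72077829-72306595), went from 10.1, 8.2 and 6.94 through 17, 17.3 and 18.6 to 61.7, 73.4 and 64.6 CPM (1.92 ± 0.11). Tacr3, the neurokinin B receptor (chr3:134829006-134934581), rose, with 5.67 to 6.72 CPM at 1 h and 18 to 21.7 at 4 h (1.62 ± 0.13). All 3 stood well above water at 4 h. Cftr, a chloride channel (chr6:18170686-18322769), was at the water level at 1 h (5.16 to 5.48 CPM against 4.54 to 5.51) and at 15.7 to 19.6 at 4 h (1.70 ± 0.10). Dennd2c, with a DENN domain (chr3:103127555-103169733), rose, with 2.73 to 3.32 CPM at 1 h and 9.78 to 10.4 at 4 h (1.77 ± 0.12).

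Dkk2, Lef1 and Adgra2, which also stood among the 12 largest rises, belong to Wnt signalling. Dkk2, a secreted Wnt modulator (chr3:132085291-132180304), rose from 5.99, 6.13 and 8.45 to 24.3, 24.4 and 25.6 CPM (1.86 ± 0.13, adjusted p = 3.64e-10), with 4.85 to 5.43 in water. Lef1, a transcription factor partner of beta-catenin (chr3:131110296-131224357), rose from 1.71, 1.74 and 1.97 to 6.12, 6.06 and 6.31 CPM (1.77 ± 0.13, adjusted p = 5.85e-10), with 1.07 to 1.46 in water. Adgra2, an adhesion receptor that assists Wnt7 signalling (chr8:27085840-27123436), lay under water at 1 h and over it at 4 h, with 4.86, 4.62 and 4.86 CPM in water, 3.06, 3.47 and 2.66 at 1 h and 11.8, 10.02 and 10 at 4 h (1.78 ± 0.15, adjusted p = 6.76e-09). Ovol2, a zinc finger repressor of mesenchymal genes (chr2:144305175-144332080), did the same, with 6.82, 6.44 and 6.32 CPM in water, 2.22, 2.8 and 2.17 at 1 h and 7.8, 7.84 and 8.46 at 4 h (1.74 ± 0.12).

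Of 18 genes of GABA-A receptors and GABA synthesis, 9 were called higher, 2 lower and 7 not called (median 0.21), beside 19.1% higher and 15.2% lower among all genes tested. Gabra2, the alpha 2 subunit (chr5:70958391-71095849), read 478, 356 and 349.5 CPM in water, 445, 409.7 and 499.9 at 1 h and 1027, 919 and 887 at 4 h (1.06 ± 0.12, adjusted p = 3.89e-07). It overlapped water at 1 h and lay above it at 4 h. Gabrg1 (0.80 ± 0.08), Gabra4 (0.63 ± 0.13), Gabrb2 (0.55 ± 0.09), the scaffold gephyrin (Gphn, 0.56 ± 0.11) and the GABA-synthesising enzyme Gad2 (0.58 ± 0.06) rose too. Gad1, the other such enzyme, was held (-0.03). Gabrg3 fell (-0.41 ± 0.14), a call lost without DMSO 1 h replicate 2 or 3 or 4 h replicate 1 or 3. The lower count was 0 without 4 h replicate 3 and 1 without any of the other 5 libraries or with all 21. Under MM401 the median of the list was 0.03, and no gene differed between the pretreatments after adjustment.

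Of 22 AMPA, kainate and NMDA receptor genes and their partners, 6 were called higher and 5 lower (median 0.07), not far from the 19.1% and 15.2% of all genes tested. Grin3a, an NMDA receptor subunit that lowers calcium permeability (chr4:49661610-49845769), rose from 70.3, 69.7 and 73.8 to 131, 115 and 114 CPM (0.75 ± 0.08, adjusted p = 8.09e-08), with 88.2 to 98.4 in water, and holds the small gene Ppp3r2 on its own strand. The kainate receptor subunits divided, Grik1 (0.57 ± 0.12) and Grik2 (0.57 ± 0.13) rising and Grik4 (-0.49 ± 0.07) and Grik3 (-0.31 ± 0.07) falling. Gria2, the AMPA receptor subunit that blocks calcium entry, rose (0.37 ± 0.09), a call lost with all 21 libraries in the fit, while Gria1, Gria3, Gria4, Grin2a and Grin2b were held. Grin3b was called lower at under 1 CPM in each group, and overlaps Tmem259 and Bc1 on the opposite strand. Without DMSO 1 h replicate 1 its call was lost, without 1 h replicate 2 or 4 h replicate 1 the list had 3 lower, and with all 21 libraries 3 were called in each direction.

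Potassium channels, which set excitability, were called in each direction in 10 of 47 cases, not far from the 19.1% higher and 15.2% lower among all genes tested (median -0.09). Kcnd2, of the A-type current, rose from 1228, 1134 and 1184 to 1882, 1975 and 1787 CPM (0.67 ± 0.13, adjusted p = 0.000263), with 842 to 1186 in water. Kcnh3, of the ether-a-go-go family, fell, with means of 10.1 CPM in water, 4.93 at 1 h and 2.97 at 4 h (-0.73 ± 0.14). Kcng1 (-1.01 ± 0.21) and Kcnq3, of the M current (-0.63 ± 0.13), also fell. Kcnh3 overlaps a gene on the opposite strand, as do Acvr1c, Grik1, Lmo3 and Sik2, so that their counts are uncertain where strand was not used.

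Transcription factors that specify cortical projection neurons were called higher in 15 of 35 cases and lower in 3 (median 0.27), beside 19.1% and 15.2% of all genes tested. Several had been below water at 1 h. Emx1, a homeobox gene of the dorsal telencephalon (chr6:85187930-85204463), read 4.96, 4.87 and 5.6 CPM in water, 1.3, 1.65 and 1.38 at 1 h and 4.16, 3.89 and 4.35 at 4 h (1.51 ± 0.12, adjusted p = 4.79e-09). Its recovery stopped short of the water libraries. Lhx2 (chr2:38339280-38369737) went from 26.9, 26.2 and 29 in water to 19.2, 18.9 and 18 at 1 h and 40, 36.8 and 34.1 at 4 h (0.98 ± 0.06, adjusted p = 1.93e-10), thus over water. Neurod1 (0.98 ± 0.13), Lmo3 (0.74 ± 0.06) and Fezf2 (0.70 ± 0.14) rose too. Rorb, a layer 4 factor (chr19:18930608-19111196), went the other way, from 695, 698 and 744 to 429.6, 450.1 and 401 CPM (-0.74 ± 0.07, adjusted p = 5.77e-08), with 315 to 359 in water. With all 21 libraries its fall missed the threshold, and over all settings 1 to 6 members were lower (5 without DMSO 1 h replicate 1).

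Of 26 genes of cholesterol synthesis, 15 were called lower, 1 higher and 10 not called (median -0.32), beside 15.2% and 19.1% of all genes tested. Insig1, which retains the pathway's activator in the endoplasmic reticulum, read 34.7, 41 and 41.7 CPM in water, 67.9, 63.4 and 61.3 at 1 h and 36.6, 39.7 and 34.8 at 4 h (-0.79 ± 0.07, adjusted p = 1.29e-08). Idi1 (-0.79 ± 0.08), Hmgcs1 (-0.44 ± 0.09) and Cyp51 (-0.43 ± 0.08), enzymes of the pathway, fell as well. Insig2 rose (0.31 ± 0.06), with 2 members higher under the replicate block and without DMSO 1 h replicate 2 or 4 h replicate 1, and Srebf2, which encodes the factor that drives the pathway, was held (0.04).

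Of 25 chaperones and stress genes of the endoplasmic reticulum, 10 were called higher, none lower and 15 not called (median 0.23), beside 19.1% higher and 15.2% lower among all genes tested. Chac1, a glutathione-degrading enzyme of the stress response (chr2:119351241-119354327), read 5.69, 5.57 and 6.19 CPM in water, 3.74, 3.63 and 3.39 at 1 h and 8.52, 7.36 and 7.63 at 4 h (1.12 ± 0.10, adjusted p = 1.7e-08). Trib3, a pseudokinase of the same response, rose, with 1.28 to 1.54 CPM at 1 h and 2.44 to 3.19 at 4 h (0.94 ± 0.16), overlapping its water range of 2.21 to 2.55. The folding enzymes Pdia3 (0.58 ± 0.20) and Pdia4 (0.40 ± 0.12) and the stress factor Xbp1 (0.27 ± 0.08) rose, the main chaperones Hspa5 (0.50 ± 0.32) and Hsp90b1 (0.25 ± 0.32) were not called, and Atf4 and Ddit3 were held. With plain library size 4 members were called higher and with all 21 libraries 5, and over all settings 4 to 12 were, with none lower. The calls of Pdia3, Pdia4 and Xbp1 were lost under both of these settings and on leaving out some single libraries, DMSO 1 h replicate 3 among them.

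**Figure D3:**
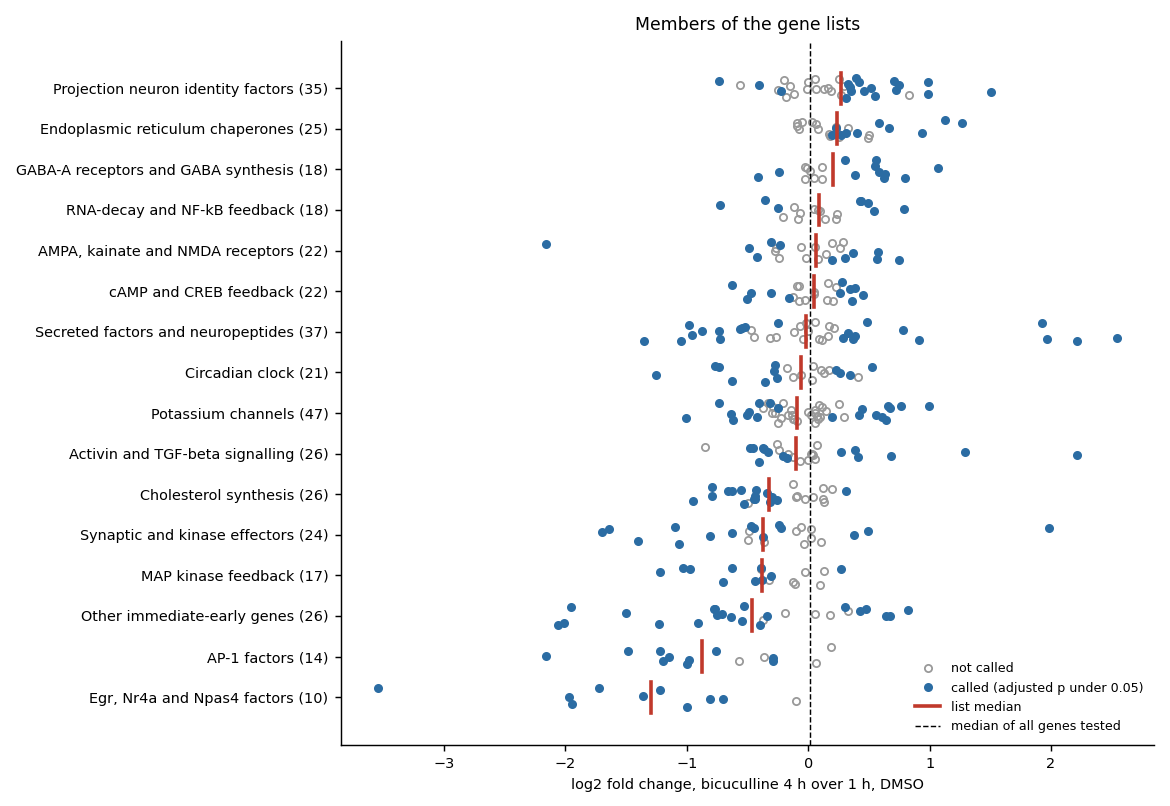
Log2 fold change of 4 h over 1 h of bicuculline in DMSO for each tested member of the 16 gene lists (number tested in parentheses). Filled points were called at an adjusted p under 0.05, open points were not, red bars are list medians and the dashed line is the median of all genes tested. The median was -1.29 for Egr, Nr4a and Npas4 factors at the bottom and 0.27 for projection neuron identity factors at the top.

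The remaining lists were mixed, and several of their counts lie near the 19.1% higher and 15.2% lower of all genes tested. Of 21 clock genes, 8 were called lower and 4 higher (median -0.06). Per1, the light- and activity-inducible period gene (chr11:69098948-69109957), fell from 85.7, 97 and 97.6 to 51.3, 58.6 and 54.8 CPM (-0.77 ± 0.09, adjusted p = 7.05e-07), with 26.6 to 30.8 in water, while Cry1, a partner in the repressor complex (chr10:85131699-85185054), rose from 63.3, 58.9 and 60.3 to 94.6, 84.3 and 84.4 CPM (0.53 ± 0.06, adjusted p = 6.18e-07). Arntl2 fell to below water (-1.25 ± 0.18). With all 21 libraries 4 clock genes were lower and 2 higher. Of 22 genes of cAMP and CREB signalling, 6 were called higher, among them Creb1 (0.39 ± 0.06), and 5 lower (median 0.05). Rgs2 (-0.63 ± 0.12) and Sik1 (-0.47 ± 0.08) were among the lower. Held were 18 of the 22, beside 59.2% of all genes tested and 75.4% of those with at least 2 CPM. The higher count was 3 without DMSO 1 h replicate 3 or with upper-quartile scaling and 2 with all 21 libraries. Of 18 RNA-decay and NF-kB feedback genes, 5 were called higher, led by Bcl3 (0.79 ± 0.15) and Rel (0.55 ± 0.08), and 3 lower, led by Nfkbid (-0.72 ± 0.14) (median 0.09). The higher count was 2 without DMSO 1 h replicate 2 or with plain library size, and 3 without 4 h replicate 1 or with all 21 libraries. The medians of the secreted factors, cAMP and CREB genes, glutamate receptors and potassium channels each changed sign under at least 1 other setting, and those of the other 12 lists did not.

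Most marker lists of cell types had few calls, read here beside the 19.1% higher and 15.2% lower of all genes tested. Microglial markers were called higher in 4 of 9 and lower in none (median 0.39), and their summed level was 55.8 to 73.2 CPM at 1 h and 77.3 to 91.6 at 4 h, beside 63.4 to 78.6 in water. Excitatory markers were called higher in 4 of 7 and lower in 1 (median 0.31), with summed levels of 867 to 942 and 1098 to 1183 CPM. Astrocyte markers split, with Aqp4 higher and Aldh1l1 and Slc1a3 lower, and oligodendrocyte and inhibitory markers had 1 call higher each, with 1 lower (Vip) among the latter. Endothelial and mural markers summed to 12.3 to 13.8 CPM at 1 h and 12.3 to 13.8 at 4 h, with Rgs5 called lower and Cldn5, Cdh5 and Kcnj8 under the filter on low counts. The medians of the microglial and excitatory markers were above that of each gene list. The part of cell composition in the results was not tested.

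The MM401 libraries share none with the 6 libraries compared, and gene sets were therefore chosen in them and then read in DMSO. Genes called at least 2-fold higher than water under MM401 with at least 2 CPM numbered 277 at 1 h (1.63% of those tested) and 356 at 4 h (2.1%). Of the 123 induced early only, 80 were called lower from 1 h to 4 h in DMSO and 1 higher, with a median of -0.45. Of the 154 induced at both times, 56 were called lower, 43 higher and 71 were held (46.1%), with a median of -0.08. Of the 202 induced late only, 155 were called higher and none lower, with a median of 0.74. In DMSO, 118 of these 202 already lay above water at 1 h without overlap, which 21.3% of all tested genes did, so that the name of the set holds for the 2-fold rule under MM401. Among all 12594 genes with at least 2 CPM, 23.8% were called higher, 16.7% lower and 75.4% were held.

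In the early-only set, 53 of 123 were held in DMSO (43.1%), a smaller share than the 75.4% of all genes with at least 2 CPM. Among them were R3hdm1, Ntrk2, Pam and Cpeb3, named for their CPM at 1 h, which favours long genes. Cpeb3 was also called lower (-0.31 ± 0.11), a call lost with all 21 libraries and without DMSO 1 h replicate 3 or any one DMSO 4 h replicate. Of the set, 97 of 123 still lay above water at 4 h without overlap, which 24.6% of all tested genes did. R3hdm1 (chr1:128103305-128237738) read 2337, 2200.0 and 2505 CPM at 1 h and 2299.6, 2218 and 2003 at 4 h, against 1217, 948 and 804 in water (-0.11 ± 0.13). The gene of this set called higher was Dmxl1 (0.49 ± 0.11), a call lost with all 21 libraries.

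**Figure D4:**
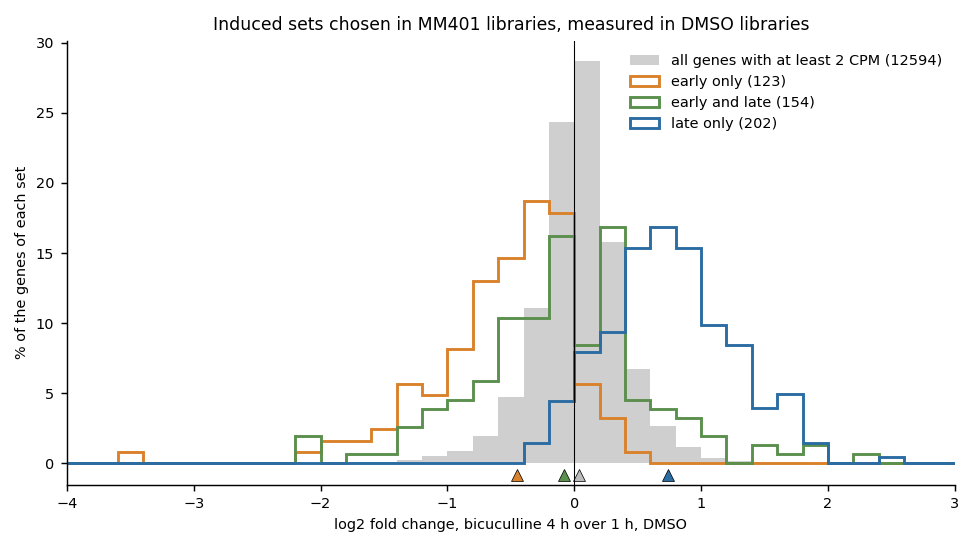
Distribution of the log2 fold change of 4 h over 1 h in the DMSO libraries, as percent of the genes of each set per bin, for 3 induced sets chosen in the MM401 libraries and for all genes with at least 2 CPM (grey). Triangles are medians, at -0.45 for early only, -0.08 for early and late, 0.74 for late only and 0.04 for all genes.

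The same time step was measured under MM401, where 5691 genes were called (33.6%), 2974 higher (17.5%) and 2717 lower (16%). No gene (0%) passed the test of the difference between the 2 steps with edgeR, nor with DESeq2, while 1195 had an unadjusted p under 0.05 with edgeR and 1106 with DESeq2. Egr4 changed by -2.94 ± 0.17 under MM401, Fosb by -2.13 ± 0.13, Egr1 by -1.66 ± 0.10, Fgf10 by 2.22 ± 0.16, Inhba by 2.17 ± 0.25 and Bdnf by 0.45 ± 0.10. Across the 16959 genes, which are not independent, Pearson's r between the 2 steps was 0.756. Under MM401, 147 genes with at least 2 CPM were called at least 2-fold lower at 4 h (2.25% of tested genes fell as far at any level). In DMSO 146 of them were called lower (15.2% of all genes tested were) and 107 by at least 2-fold (2.35%). Of 88 at least 2-fold higher under MM401 (1.16% at any level), 84 were called higher in DMSO (19.1%) and 65 by at least 2-fold (1.2%).

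**Figure D5:**
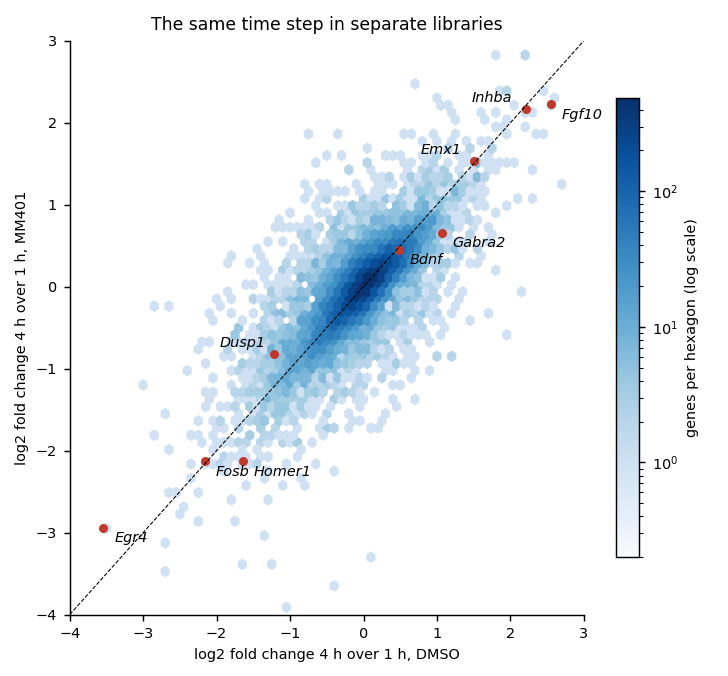
Log2 fold change of 4 h over 1 h of bicuculline in DMSO (horizontal) and under MM401 (vertical), from separate libraries, for all genes tested. Shading is the number of genes per hexagon on a log scale, 6 genes lie outside the axes, the dashed line is equality and red points are named genes. Egr4 lies at -3.54 and -2.94, and Fgf10 at 2.55 and 2.22.

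The 147 falling and 88 rising genes chosen under MM401 were then set beside DMSO water. Of the falling genes, 92 lay above water at 1 h without overlap (21.3% of all tested genes did), 49 overlapped it and 6 lay below (26.1%). At 4 h 27 lay above water, 32 overlapped it and 88 lay below (27.9% of all tested genes did). Of the 92 that had been above water at 1 h, 27 stayed above it, 30 overlapped it and 35 lay below it at 4 h. Without DMSO water replicate 1, which stood apart, 92 genes lay below water at 4 h.

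The 35 genes that went from above to below water became 68 without water replicate 1, when more of the set counted as above water at 1 h. Besides Egr1 and Egr3 the 35 included Nfatc2, a calcium-regulated transcription factor, with 44.2, 43.1 and 45 CPM in water, 74.2, 83.4 and 88.3 at 1 h and 34.1, 36.6 and 38.8 at 4 h (-1.17 ± 0.07). Lama4, a laminin chain, had 9.16 to 12.8 CPM in water, 20.5 to 22.4 at 1 h and 7.94 to 9.0 at 4 h (-1.30 ± 0.11). Scfd2, of vesicle transport, was just above water at 1 h, with 135 to 143 CPM against 122 to 134, and fell to 69.1 to 70.6 (-0.99 ± 0.05). These 3 were picked after their values were seen.

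Among the rising genes, 29 already lay above water at 1 h (21.3% of all tested genes did), 36 overlapped it and 23 lay below it. The share below is near the 26.1% of all tested genes. At 4 h 78 lay above water (24.6% of all tested genes did), 9 overlapped it and 1 lay below (27.9%). Without water replicate 1 the first of these counts was 79. The 23 that had dipped first included Adgra2, Ovol2 and Emx1, given above, and Hes5, a Notch target, with 2.36, 3.75 and 4.85 CPM in water, 1.38, 0.818 and 1.06 at 1 h and 3.41, 3.44 and 3.01 at 4 h (1.6 ± 0.20). Hes5, also picked after its values were seen, was back within its water range at 4 h.

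The span of a gene bears on a 30 min label, and calls were therefore counted by span. Genes under 10 kb were called higher in 7.86% and lower in 8.73%, those of 100 to 300 kb in 30.2% and 25.9%, and those over 300 kb in 20.6% and 26.0%. The median change lay between -0.01 and 0.04 in each of the 5 classes. Short genes had fewer counts and larger errors, with a median SE of 0.18 under 10 kb and 0.08 at 30 to 100 kb. Egr4, Ccn1, Fos, Arc and Dusp1 each span under 4 kb, while Homer1 spans 101 kb.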

How the data were processed

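The authors deposited raw read counts per whole gene span (introns included) on mm10, in a featureCounts table per the file headers. Bowtie2, UMI-tools, deepTools and DESeq2 are also named in the submitters' processing notes, without versions. The annotation release and the use of strand are not given in the sources used here. One MM401 water library (316741 counts) was left out, so that 20 of 21 libraries entered 1 fit with edgeR 4.0.16 (limma 3.58.1, R 4.3.3), whose 7 groups share an estimate of the spread. Genes were filtered with filterByExpr (min.count 10, min.total.count 15), and counts were TMM-scaled and tested by the robust quasi-likelihood test with Benjamini-Hochberg adjustment. The common biological coefficient of variation was 8.77% and the median SE of a log2 change 0.11. Replicates differed by 14.4 to 22.8 chi-square units per degree of freedom, far above counting noise, so none was merged. Where nothing beyond the label says how replicates arose, p-values measure the spread between these samples.

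The script was tested on simulated counts for 16688 genes, where it recovered 80.3% of log2 changes of 0.5 and 100% of changes of 1, with 5 false calls. Every simulated gene had the same spread, replicates had no shared effect and few genes were changed. These rates therefore need not hold for the data. Named genes were the 12 largest called changes in each direction with at least 2 CPM and no overlap, predicted and small RNA genes excluded, up to 4 called members per list and direction, 4 per induced set and direction with 4 held genes, and 10 that were always named. Other list members are named to account for the lists. The members and lists were chosen with earlier results of these data known. Coordinates are those of the authors' table, in which starts on the plus strand lie 1 base below those of RefSeq. Promoter windows came from RefSeq (GRCm38.p6). Alternatives were other scalings, filters, DESeq2 1.42.0, a gene length offset, the replicate number as a block, other sets of libraries and each replicate left out. The tables of other measurements of the series were not used here. Results of some genes are not reported here.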

Additional observations from a re-analysis of the deposited data

How the results depend on the processing

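With all 21 libraries in the fit, 3745 genes were called in DMSO (1725 higher, 2020 lower), of which 3721 were among the 5805 reported, and 3646 were called under MM401. The shallow library alone was added there. A minimum count of 50 left 400 calls of at least 2-fold, with fewer genes tested (14594). Under the other settings the number of calls in DMSO stayed within 1.5 times, from 5098 with only the 6 libraries compared to 6229 with the replicate block. No gene called both in the reported result and under a setting had opposite directions in them. Genes called only under a setting were not compared for direction. Leaving out each replicate in turn gave 4875 to 5317 calls, 531 to 645 of at least 2-fold and 9321 to 9703 held genes in DMSO, and 4624 to 5383 calls under MM401. Without DMSO 1 h replicate 3, falls outnumbered rises (2785 against 2532). The difference between pretreatments had 0 calls under each setting.

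Whether equal replicate numbers mark a shared preparation is not stated, and the main fit takes no account of them. Deviations of same-number libraries correlated weakly but positively (0.17, 0.20 and 0.09 in DMSO, 0.15, 0.06 and 0.06 under MM401). Those of unequal numbers in DMSO ranged from -0.26 to 0.11. The 4 h library of replicate 3 correlated slightly better with the 1 h library of replicate 2 (0.11) than with that of replicate 3 (0.09). The replicate block gave 6229 calls, 622 of at least 2-fold, and changed no call of the 136 named genes.

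Across named genes and settings, 2087 values kept direction and call, 80 lost the call, 3 gained it and 5 changed sign. Ifrd1 ranged from -0.13 to 0.0382 on leaving out single libraries, and was above 0 without DMSO 1 h replicate 3, 4 h replicate 2 or 4 h replicate 3. Rnf217 was -0.0205 with plain library size, and ranged from -0.0126 (without DMSO 1 h replicate 1) to 0.133 on leaving out single libraries. Both were held, near 0. Genes of low count limit the rest: under 10 kb of span, 44.2% of genes met the interval for held, against 65.9% at 30 to 100 kb.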

Other observations

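Histone genes, which package DNA and were in none of the lists, were examined after their values were seen. Of 57 tested genes whose symbols start with Hist, 20 were called higher at 4 h than at 1 h in DMSO and none lower, beside 19.1% higher and 15.2% lower among all genes tested, with a median of 0.91. Many varied widely between libraries, and in 27 of the 57 replicate 1 read highest and replicate 3 lowest at both times. Hist2h2bb, for one, read 8.45, 4.93 and 3.05 CPM at 1 h and 13.1, 10.3 and 6.94 at 4 h (0.87 ± 0.43, adjusted p = 0.148 by edgeR's quasi-likelihood test). The fit without a block leaves 20 of those 27 uncalled. With the replicate number as a block, 34 of the 57 were called higher and none lower, while same-number deviations correlated only weakly over all genes. Their median change against DMSO water was -0.46 at 1 h and 0.33 at 4 h. Hist1h1c, a linker histone, read 4.88, 8.02 and 9.79 CPM in water, 3.77, 3.65 and 2.88 at 1 h and 11.9, 10.4 and 10.6 at 4 h (1.66 ± 0.19), so that each 1 h library lay below each water library. Hist1h1d (1.52 ± 0.21) moved the same way. Under MM401, 24 were called higher and none lower (median 1.03), beside 17.5% and 16% of all genes tested. Many core histone genes are near-identical copies, so that reads may be split between them and single values are uncertain.

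Wnt signalling was listed after Dkk2, Lef1 and Adgra2 had been seen to rise. Of 53 tested genes, 21 were called higher and 9 lower (median 0.16), beside 19.1% and 15.2% of all genes tested. Under MM401 16 were higher and 11 lower (median 0.10), beside 17.5% and 16%. The lower shares lie near those of all genes. Draxin, a secreted Wnt antagonist and axon guidance protein, read 6.48, 6.26 and 6.8 CPM in water, 3.75, 4.1 and 3.8 at 1 h and 8.79, 8.08 and 9.51 at 4 h (1.18 ± 0.12). Rnf43, a ubiquitin ligase that removes Wnt receptors, rose from 10.9, 9.98 and 10.1 to 24.4, 23.2 and 21.8 CPM (1.16 ± 0.08). The ligand Wnt9a (-1.13 ± 0.12) and the factor Tcf7 (-1.0 ± 0.16) fell.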
